A study of Mus musculus with 6 samples.

Results

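The genes described here are 10 genes of MHC class II antigen presentation and of Langerhans and dendritic cells: H2-Aa, H2-Ab1, H2-Eb1, H2-DMa, H2-DMb1, Cd74, Ciita, Cd207, Itgax and Epcam. They were taken by name, and all 10 were found among the 26814 genes of the count table. The counts came from RNA-Seq of the top lip of adult female mice on a C57BL/6J background. Of these, 3 mice were homozygous for the Gtf2ird1 tm1Hrd null allele (KO1 to KO3) and 3 were wild type (WT1 to WT3), with 1 mRNA library per mouse, no treatment and the ages of single mice not given in the sources used here. The null allele was present in every cell of the animal, so the lip holds mutant keratinocytes, fibroblasts, muscle and leukocytes alike.

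Class II molecules carry peptides from proteins taken up by a cell to CD4 T cells. An alpha and a beta chain pair in the endoplasmic reticulum with the invariant chain (Cd74), which fills the peptide groove, and the H2-DM dimer later exchanges its remnant for an antigenic peptide. The whole set is switched on by the coactivator CIITA, which binds no DNA itself but docks on RFX, CREB and NF-Y proteins that sit on the X and Y boxes of class II promoters. Langerhans cells are the class II-bearing cells of the epidermis and oral mucosa. They are known by langerin (Cd207) and carry the dendritic cell integrin CD11c (Itgax) and the surface protein EpCAM.

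Total counts ran from 20164081 (KO1) to 29491767 (KO2), and 3 counts in a library, the most that a count of 0 allows, corresponded to 0.0984 to 0.153 CPM (CPM, the count scaled to the library's TMM-adjusted total). This limit covers counting error only. Gtf2ird1 itself was higher in all 3 libraries labelled KO (157 ± 11.7 CPM) than in the WT (72.9 ± 4.49 CPM; log2 fold change 1.11, adjusted p = 0.0018 in edgeR's quasi-likelihood test). That goes against a simple loss of its transcript, so every direction below is that of the libraries labelled KO over the libraries labelled WT. KO3 stood nearer to the WT than the other KO libraries did: across the 15009 tested genes its log2 CPM correlated with the WT at 0.942 to 0.948, and KO1 and KO2 at 0.899 to 0.925. Results that changed most without KO3 are therefore given both ways.

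Because CIITA acts through promoter boxes, the sequences upstream of the start sites were read first. RefSeq promoters (GRCm38.p6, 250 bases before to 50 after the start) were at hand for 7 of the 10 genes, all but H2-Ab1, Cd74 and Ciita. Both strands were searched for the core of the X box (AACNGATG), the X2 box core (TGACG) and the Y box (ATTGG), letters that were chosen with these promoters in view. Shown here, 5′ to 3′ on the gene's own strand and ending at or just before the start site, are the promoters of a class II alpha and beta chain, of Cd207 as the gene of the 10 with the largest log2 fold change, and of the class I genes H2-K1 and B2m for comparison. Capitals mark an X or X2 core followed by a Y box.
H2-Aa (chr17:34287824-34287973, minus strand): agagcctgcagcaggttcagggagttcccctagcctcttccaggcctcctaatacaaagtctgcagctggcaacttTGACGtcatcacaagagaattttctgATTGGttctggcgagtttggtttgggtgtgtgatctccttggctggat
H2-Eb1 (chr17:34305717-34305866, plus strand): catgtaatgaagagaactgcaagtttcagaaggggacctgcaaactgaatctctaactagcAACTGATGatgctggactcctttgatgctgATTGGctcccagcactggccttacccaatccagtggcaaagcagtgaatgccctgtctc
Cd207 (chr6:83677858-83678007, minus strand): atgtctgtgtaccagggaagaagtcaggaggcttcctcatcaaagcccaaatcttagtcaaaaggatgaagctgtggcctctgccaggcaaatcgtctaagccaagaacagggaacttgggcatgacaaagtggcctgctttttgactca
H2-K1 (chr17:34000348-34000497, minus strand): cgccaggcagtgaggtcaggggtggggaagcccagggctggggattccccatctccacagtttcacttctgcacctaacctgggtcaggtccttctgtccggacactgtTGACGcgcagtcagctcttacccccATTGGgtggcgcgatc
B2m (chr2:122147537-122147685, plus strand): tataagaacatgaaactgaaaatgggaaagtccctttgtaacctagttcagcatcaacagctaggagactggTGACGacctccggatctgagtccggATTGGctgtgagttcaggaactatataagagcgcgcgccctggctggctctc

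In H2-Eb1 the X core lay 22 bases before the Y box, and in H2-Aa the X2 core lay 21 bases before it. The window of H2-Eb1 overlaps an exon of Gm20513. In the class I genes H2-K1 and B2m the X2 core and the Y box were 20 bases apart. H2-DMb1 also held the X core and the Y box, with 23 bases between them, in a stretch that overlaps an annotated H2-DMb1 exon and is not shown. An X core followed on the same strand by a Y box within 10 to 40 bases was found in 13 of 32851 promoters (0.0396%), and 4 of these belonged to the class II genes H2-Eb1, H2-Eb2, H2-DMb1 and H2-DMb2. The X2 core and Y box pair was commoner, in 317 promoters (0.965%), while a Y box alone was in 37.4%, an X core alone in 2.32% and an X2 core alone in 20.8%. Neither pair was found in the promoters searched for H2-DMa, Cd207, Itgax and Epcam. For H2-DMa the windows before the start sites at hand (17:34122682-34122831 and 17:34125368-34125517) lay inside the annotated span of the gene. Any other start of H2-DMa was not searched, so the layout of its promoter is left open. A match is a description of the letters and says nothing about binding in the lip.

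In short, 2 of the 10 genes rose in the libraries labelled KO: Ciita, 2.65-fold, and Cd207, 3.52-fold. The 3 class II chains, both H2-DM chains and Cd74 lay 0.28 to 0.49 higher on the log2 scale, none of them past the test. Itgax was higher in every KO library without passing, and the interval of Epcam ran from -0.36 to 0.21 log2 units. All 10 genes passed the filter of at least 1 CPM in at least 3 libraries. Among all tested genes 6.47% passed an adjusted p of 0.05, 4.38% higher and 2.09% lower. No member passed in the lower direction in edgeR's quasi-likelihood test, edgeR's exact test or DESeq2, and none of the 3 members with an unadjusted p under 0.05 (Ciita, Cd207 and Itgax) was lower. Of all tested genes 29.6% had such an unadjusted p.

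**Figure D1:**
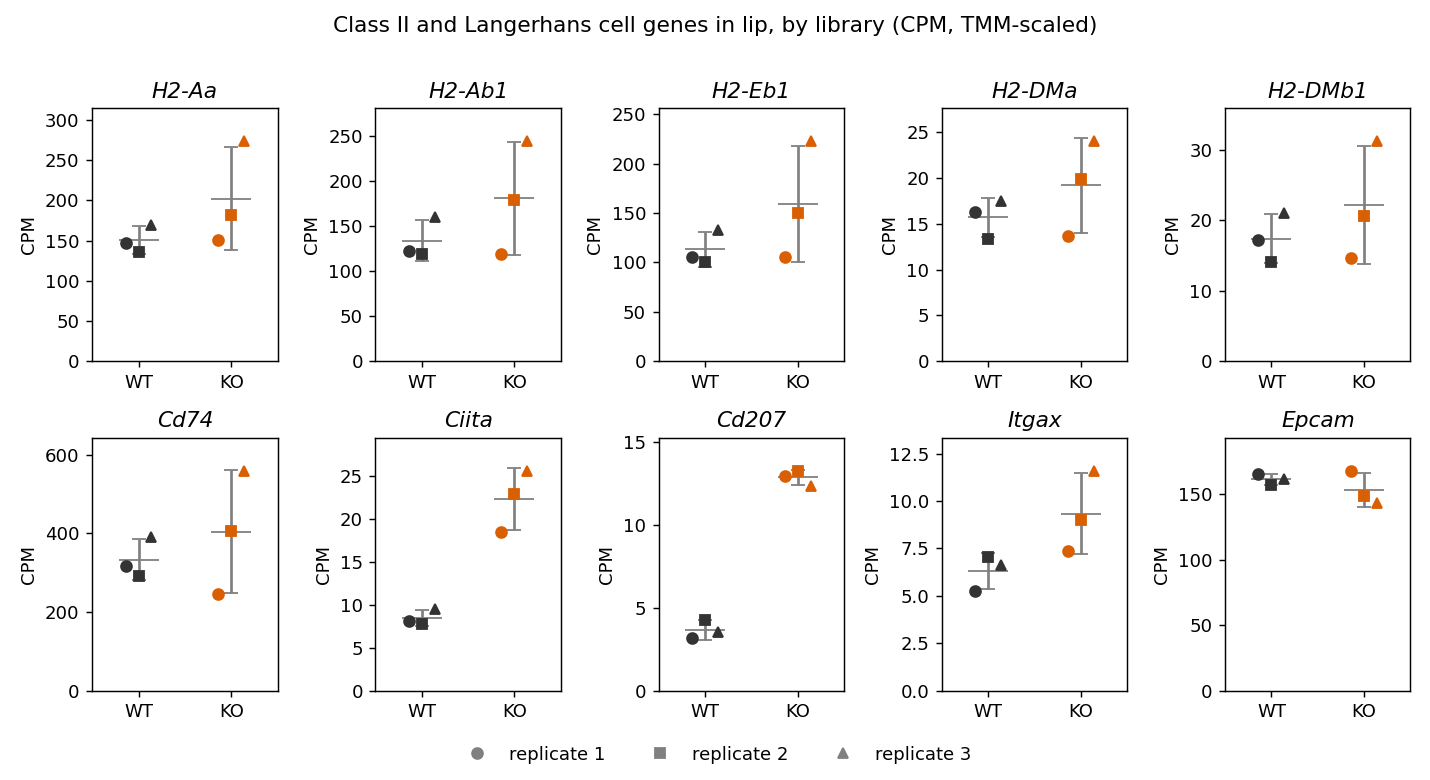
CPM of the 10 genes in each library, WT in grey and KO in orange, with the replicate number as the symbol and the mean and SD (n = 3 per genotype) as bars. Ciita, Cd207 and Itgax have all KO points above all WT points, the class II chains and chaperones overlap with KO3 at the top, and Epcam overlaps.

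H2-Aa and H2-Ab1 encode the alpha and beta chain of I-A, the class II molecule that C57BL/6 mice use. H2-Aa (17:34282744-34287823) had 147 CPM in WT1, 136 in WT2 and 170 in WT3, against 150 in KO1, 182 in KO2 and 274 in KO3. KO2 and KO3 lay above the WT and KO1 within it. The means were 151 ± 17.2 and 202 ± 64.0 CPM, a log2 fold change of 0.42 with a 95% interval from -0.09 to 0.93 (adjusted p = 0.241, edgeR quasi-likelihood test). H2-Ab1 (17:34257689-34269419) had 122, 120 and 161 CPM in WT1, WT2 and WT3, and 120, 179 and 245 CPM in KO1, KO2 and KO3. KO1 was thus level with WT2, and the SD among KO mice (62.5 CPM) was larger than the difference of the means (134 ± 22.9 and 181 CPM; log2 fold change 0.43, interval -0.15 to 1.02, adjusted p = 0.283).

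H2-Eb1 is the beta chain of I-E, whose alpha chain gene H2-Ea is defective in C57BL/6 mice, so this transcript is read without a surface I-E molecule. Its gene (17:34305867-34316674) gave 106, 101 and 133 CPM in WT1, WT2 and WT3, and 106, 150 and 223 CPM in KO1, KO2 and KO3. The pattern was that of H2-Ab1, with KO1 among the WT and KO3 on top. The log2 fold change was 0.49 (interval -0.10 to 1.09, adjusted p = 0.236).

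The H2-DM chains edit the peptide in the groove. H2-DMa (17:34119541-34139101, sharing exon bases with Brd2) had 16.3, 13.3 and 17.5 CPM in WT1, WT2 and WT3, and 13.7, 19.9 and 24.0 CPM in KO1, KO2 and KO3. H2-DMb1 (17:34153072-34160230) had 17.2, 14.04 and 21.1 CPM in WT1, WT2 and WT3, and 14.7, 20.6 and 31.3 CPM in KO1, KO2 and KO3. In both genes KO1 fell inside the WT range, and in H2-DMb1 KO2 did too. The log2 fold changes were 0.29 for H2-DMa (interval -0.23 to 0.81, adjusted p = 0.407) and 0.35 for H2-DMb1 (interval -0.30 to 1.0, adjusted p = 0.429).

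Cd74, the invariant chain and the most abundant of the 10 transcripts (18:60803848-60812652, sharing exon bases with Mir5107), had 318, 292 and 391 CPM in WT1, WT2 and WT3. KO1 had 246 CPM, the lowest of the 6 libraries, KO2 had 407 and KO3 had 559, the highest. The KO libraries thus lay on both sides of the WT (mean 334 ± 51.4 CPM in WT, 404 ± 157 in KO; log2 fold change 0.28, interval -0.37 to 0.92, adjusted p = 0.527).

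Over these 6 structural genes, the median log2 fold change was 0.38, beside -0.02 over all tested genes. All 6 were positive, 0 passed the test and 0 had an unadjusted p under 0.05. The height of the median rested on single mice: it was 0.12 without KO3 and 0.64 without KO1. Without KO3 the log2 fold changes were 0.14 for H2-Aa, 0.16 for H2-Ab1, 0.18 for H2-Eb1, 0.10 for H2-DMa, 0.03 for H2-DMb1 and -0.03 for Cd74. Their summed CPM was 675 to 893 in the WT, 650 in KO1, 958 in KO2 and 1355 in KO3. In these bulk libraries more cells that carry class II and more class II transcript per cell cannot be told apart.

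**Figure D2:**
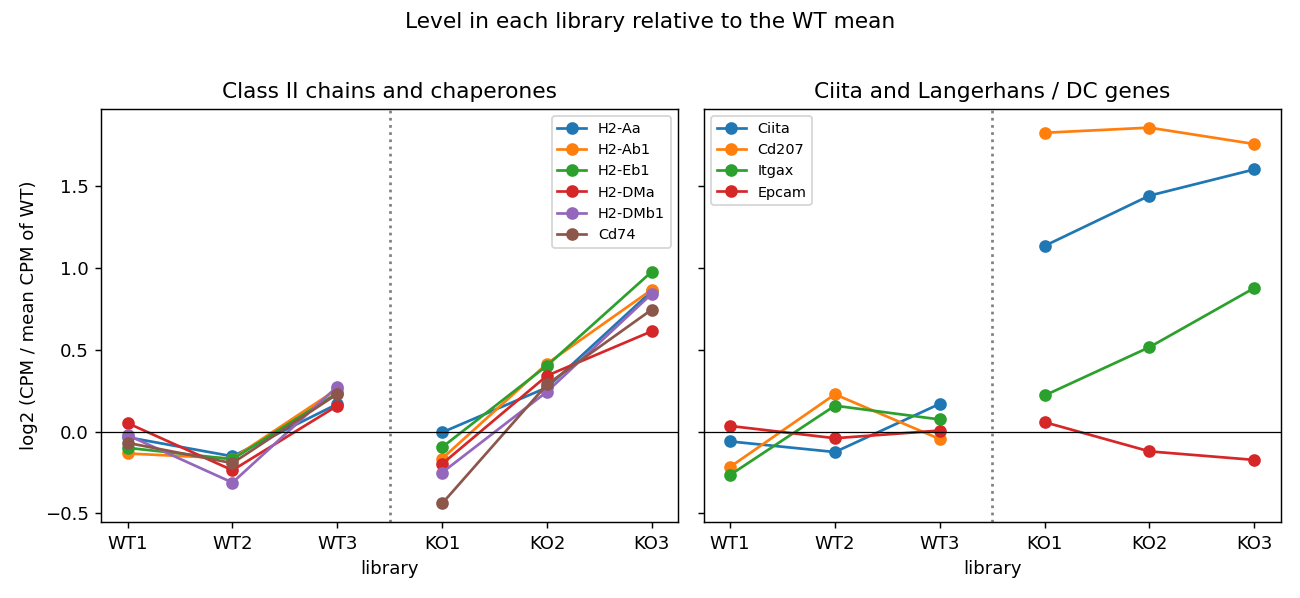
Level of each gene in each library as log2 of its CPM over the mean CPM of the WT, with lines joining the points of 1 gene only to guide the eye. On the left, the 6 class II chains and chaperones move together between mice, with KO1 near or under the WT mean and KO3 above it; on the right, Ciita and Cd207 lie above the WT in all 3 KO libraries.

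Ciita (16:10480059-10528418), the class II coactivator, rose. It had 8.08 CPM in WT1, 7.72 in WT2 and 9.47 in WT3, and 18.5 in KO1, 22.9 in KO2 and 25.6 in KO3. The lowest KO value was well clear of the highest WT value. With no margin asked for, all 3 KO libraries lay above all 3 WT libraries in Ciita, Cd207 and Itgax, and in 13.5% of tested genes, and no member lay the other way, beside 31.5% of tested genes with no overlap in either direction. The means were 8.42 ± 0.924 and 22.3 ± 3.57 CPM (n = 3 each), and the log2 fold change was 1.41 ± 0.18 (SE; interval 0.99 to 1.82, adjusted p = 0.0031). Ciita kept its call in all 11 alternative analyses and in all 6 fits that left out 1 library, with log2 fold changes of 1.3 to 1.59 in the latter.

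The raw counts of Ciita were 182 to 223 in the WT and 362 to 697 in the KO libraries, so its level was low but well above the counting limit. It shares exon bases with Dexi on the opposite strand, and the sources used here do not state whether counting used the strand. Dexi was lower in all 3 KO libraries (37.1 ± 6.47 CPM in the WT, 28.6 ± 0.888 in the KO; log2 fold change -0.38, adjusted p = 0.157), so the 2 genes differed in opposite directions.

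To set Ciita against the class II chains in the same library, the ratio of the 2 genes was taken within each mouse. The log2 ratio of H2-Ab1 to Ciita was 3.92, 3.95 and 4.08 in WT1, WT2 and WT3, and 2.69, 2.97 and 3.26 in KO1, KO2 and KO3. It was lower in all 3 KO libraries, by 1.01 on average, and the H2-Aa to Ciita ratio was lower by 1.02. With 3 mice against 3 an exact two-sided permutation test cannot go below p = 0.1, the value both ratios gave (0.156 after Benjamini-Hochberg adjustment over 14 ratios). By contrast the H2-Ab1 to H2-Aa ratio differed by 0.01 (exact permutation p = 1) and the H2-DMb1 to H2-DMa ratio by 0.04 (exact permutation p = 0.8). Within each genotype the ratios of these paired chains varied by at most 0.18 log2 units (SD). Of the 14 ratios, 6 were in the design and 8, including these 4, were chosen after the values were seen.

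**Figure D3:**
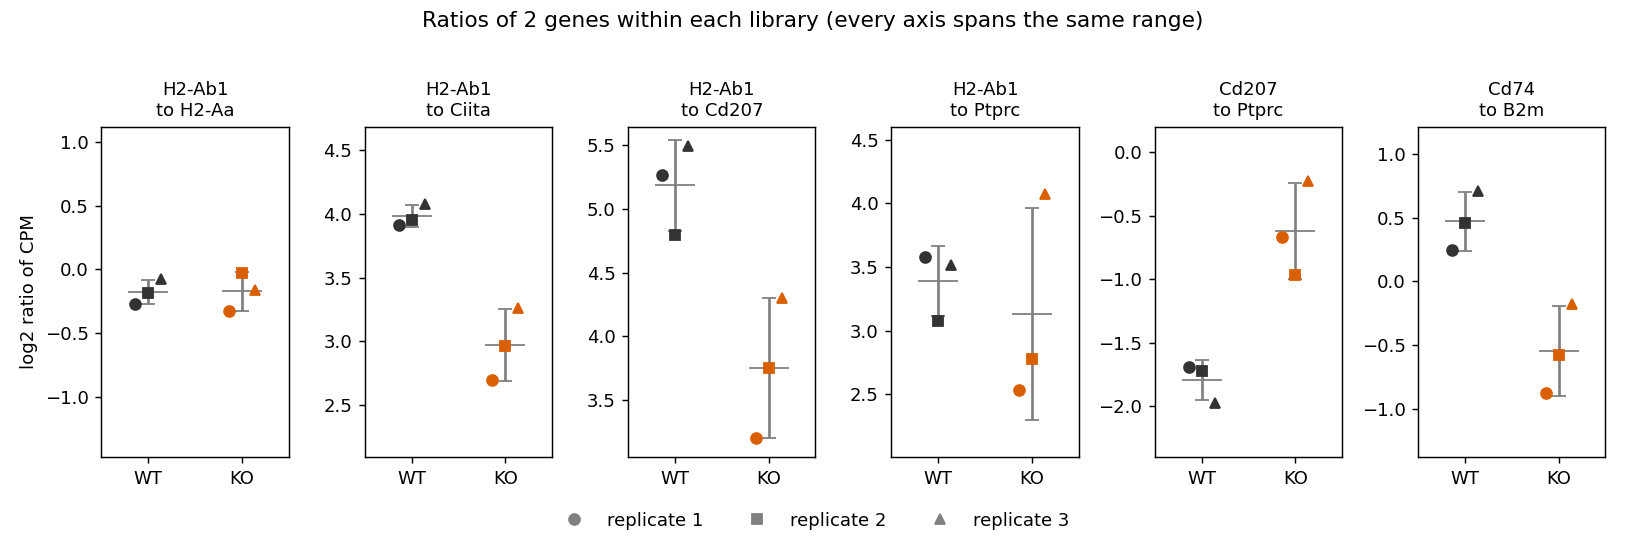
Log2 ratio of the CPM of 2 genes within each library, WT in grey and KO in orange, with the mean and SD (n = 3); every axis spans the same range. H2-Ab1 keeps its ratio to H2-Aa, while its ratios to Ciita and Cd207 are lower in all 3 KO libraries, Cd207 to Ptprc is higher in all 3, and Cd74 to B2m is lower in all 3.

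Cd207, langerin, is the endocytic lectin that forms the Birbeck granules of Langerhans cells and is also found on a subset of dermal dendritic cells. Its gene (6:83671215-83677857) had 3.15, 4.29 and 3.55 CPM in WT1, WT2 and WT3. KO1 had 13.0 CPM, KO2 13.3 and KO3 12.4, so the KO libraries were close to each other and far above the WT (3.66 ± 0.576 CPM in WT, 12.9 ± 0.454 in KO). In counts these were 79 to 101 reads in the WT and 254 to 404 in the KO. The log2 fold change was 1.81 ± 0.18 (SE; interval 1.40 to 2.23, adjusted p = 0.000932), and it stayed between 1.71 and 2.0 with each library left out, with the call kept each time and in all 11 alternatives. Unlike the class II chains, Cd207 was as high in KO1 as in KO3.

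Itgax, the alpha X integrin chain CD11c of dendritic cells and some macrophages (7:128129547-128150657), had 5.25, 7.04 and 6.64 CPM in WT1, WT2 and WT3. The KO libraries had 7.35 (KO1), 9.02 (KO2) and 11.6 CPM (KO3), all above the WT, though KO1 exceeded WT2 by little. The log2 fold change of 0.56 had an interval of 0.06 to 1.07 and an unadjusted p of 0.0335, but an adjusted p of 0.138 in edgeR's quasi-likelihood test, and it passed in none of the alternatives.

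Epcam, the homophilic adhesion molecule that Langerhans cells share with many epithelia (17:87635979-87651129), had 165, 157 and 162 CPM in WT1, WT2 and WT3, and 168, 148 and 143 CPM in KO1, KO2 and KO3. The groups overlapped, and the difference was -0.08 on the log2 scale (interval -0.36 to 0.21, adjusted p = 0.703). Its sign changed to 0.004 without KO2. Per kilobase of exon its level was 73.6 CPM in the WT beside 2.41 for Cd207. Cdh1 was itself higher in all 3 KO libraries without passing (412 ± 9.84 CPM in the WT, 530 ± 26.8 in the KO, log2 fold change 0.37, adjusted p = 0.108). Against E-cadherin (Cdh1) the log2 ratio of Epcam was lower in all 3 KO libraries, by 0.44 (-1.35 ± 0.02 in the WT and -1.79 ± 0.15 in the KO; exact two-sided permutation p = 0.1), whereas against Krt14 it was lower by 0.22 with overlap (exact permutation p = 0.2).

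Ranked by level per kilobase of exon in the WT, Cd74 (199 ± 30.6 CPM per kb) stood first, followed by Epcam (73.6 ± 1.92), H2-Eb1 (58.2 ± 9.04), H2-Ab1 (52.2 ± 8.93) and H2-Aa (39.7 ± 4.52). H2-DMb1 (10.4 ± 2.1) and H2-DMa (4.55 ± 0.623) were lower, and Cd207 (2.41 ± 0.378), Itgax (1.31 ± 0.196) and Ciita (0.883 ± 0.0969) were lowest. In the WT the SDs overlapped for H2-Eb1 with H2-Ab1 and for H2-Ab1 with H2-Aa only. In the libraries labelled KO, Cd207 (8.45 ± 0.298 CPM per kb) stood above H2-DMa (5.57 ± 1.51), and Ciita (2.34 ± 0.374) and Itgax (1.94 ± 0.444) overlapped. There the SDs of H2-Eb1, H2-Ab1, Epcam and H2-Aa all overlapped with their neighbours, and so did those of H2-DMb1 and Cd207.

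**Figure D4:**
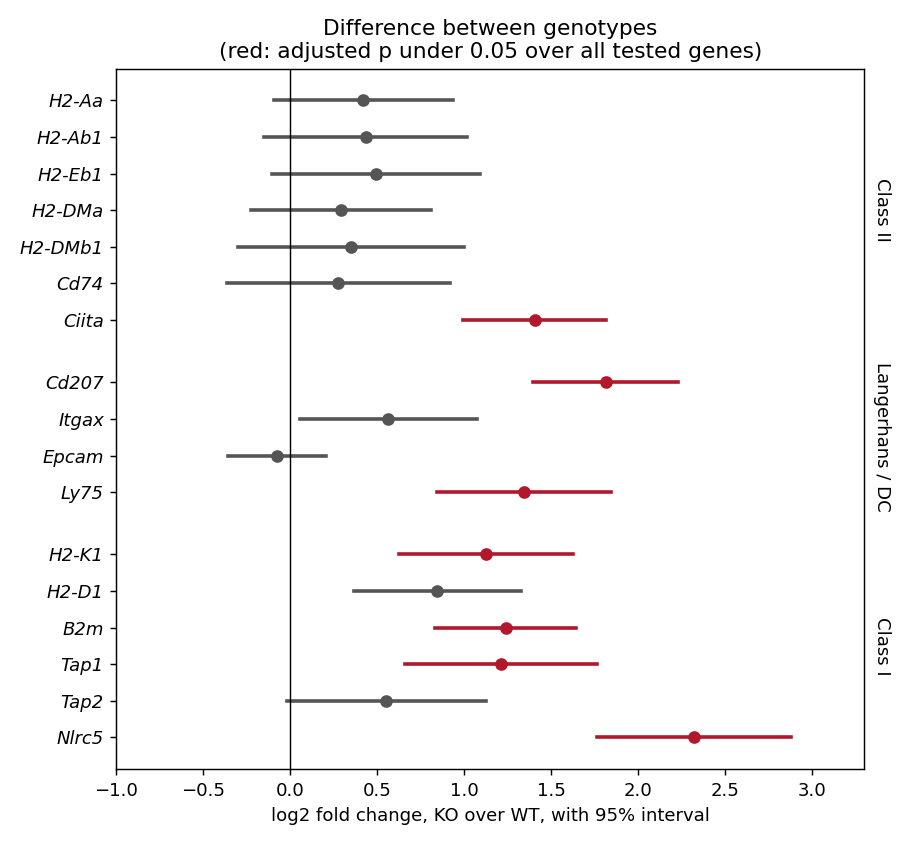
Log2 fold change of KO over WT with its 95% interval for the 10 genes, for Ly75 and for 6 class I genes, in red where the adjusted p of edgeR's quasi-likelihood test was under 0.05. Ciita and Cd207 stand clear of 0, as do Ly75, H2-K1, B2m, Tap1 and Nlrc5, while the intervals of the class II chains and chaperones include 0.

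The other genes of class II processing and control did not pass. Of 20 in the table, 18 were tested and 0 passed in either direction, beside 6.47% of all tested genes. An unadjusted p under 0.05 was seen in 0 of them, beside 29.6% of all tested genes, and the median log2 fold change was 0.13. The lowest p-values belonged to H2-DMb2, the second DM beta chain (3.29 ± 0.803 CPM in the WT, 4.82 ± 0.776 in the KO; log2 fold change 0.55, adjusted p = 0.17), and Lgmn, a lysosomal protease (80.0 ± 10.6 and 58.0 ± 16.7 CPM; -0.46, adjusted p = 0.184). Nor did the genes of the proteins on which CIITA docks: Rfx5 had a log2 fold change of 0.12, Rfxap -0.08, Rfxank -0.14, Nfya 0.14, Nfyb 0.20, Nfyc -0.08 and Creb1 0.41, with adjusted p-values from 0.301 (Creb1) to 0.775, and these genes were named after their values were seen. Without KO3, a fit in which 33% of all tested genes were called, 2 of the 18 passed higher and 1, Lgmn, passed lower (-0.72, adjusted p = 0.00825). H2-Oa and H2-Eb2 were too low to be tested, at 0 to 9 and 0 to 11 counts in a library.

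Class I presentation shares the X2 and Y box promoter layout but uses NLRC5 in the place of CIITA. It was read beside class II, and the difference between the 2 lists was not tested. Of its 13 genes 6 rose and 0 fell, beside 4.38% and 2.09% of all tested genes. All 13 were positive, beside 7208 of the 15009 tested genes, and the median log2 fold change was 1.10. Nlrc5 had 16.8, 21.1 and 12.7 CPM in WT1, WT2 and WT3 and 68.5, 107 and 77.2 CPM in KO1, KO2 and KO3 (log2 fold change 2.32, adjusted p = 0.00116). B2m, the light chain of class I, went from 239 ± 27.9 to 565 ± 98.4 CPM (1.24, adjusted p = 0.00555). H2-K1, a class I heavy chain (1.12, adjusted p = 0.0241), the peptide transporter Tap1 (1.21, adjusted p = 0.0266), the immunoproteasome subunit Psmb9 (1.58, adjusted p = 0.0375) and the peptide-trimming Erap1 (1.32, adjusted p = 0.0184) also rose. Psmb9 and Tap1 share exon bases, as do Nlrc5 and 9330175E14Rik. The count of 6 was 2 without WT1, WT3 or KO2, 3 without WT2 and 9 without KO3, where 33% of all tested genes were called. Nlrc5 and B2m kept their call each time.

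Single class II and class I genes were also set against each other in the same library. The log2 ratio of Cd74 to B2m was 0.25, 0.46 and 0.71 in WT1, WT2 and WT3 and -0.88, -0.58 and -0.18 in KO1, KO2 and KO3, a difference of -1.02. The ratio of H2-Ab1 to H2-K1 differed by -0.74 and that of Ciita to Nlrc5 by -0.93. In all 3 ratios the KO libraries lay below the WT (exact two-sided permutation p = 0.1 for each, the smallest possible; 0.156 adjusted). These 3 pairs were chosen after the values were seen, with class I genes that had already passed the test. Not every class I gene differed more than the class II chains: Tapbp (log2 fold change 0.37) and Calr (0.09) lay below H2-Eb1 (0.49).

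Interferon gamma is the classical inducer of Ciita. Of 12 genes of that axis 11 were tested, 3 rose and 0 fell, beside 4.38% and 2.09% of all tested genes. The median was 0.46. Cxcl10, an interferon-induced chemokine, had 0.788 ± 0.201 CPM in the WT and 5.11, 19.1 and 20.8 CPM in KO1, KO2 and KO3 (log2 fold change 4.23, adjusted p = 0.00345). The receptor kinase Jak1 rose by 0.62 (adjusted p = 0.0482, called in 7 of 11 alternatives but only without KO3 among the 6 leave-one-out fits). Irf1 was higher in all 3 KO libraries without passing (0.46, adjusted p = 0.109). Of the 11 tested genes 7 had a positive and 4 a negative log2 fold change. Among the negative ones were the receptor chains Ifngr1 (-0.42, adjusted p = 0.172) and Ifngr2 (-0.32, adjusted p = 0.24). Ifng itself had 0 counts in all 3 WT libraries and KO1, 3 in KO2 and 1 in KO3, too few to compare. The 3 calls became 1 without WT1, WT3 or KO2, Cxcl10 in each case staying called. In the fit without KO3, which called 33% of all tested genes, 4 were called higher and 1 lower.

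**Figure D5:**
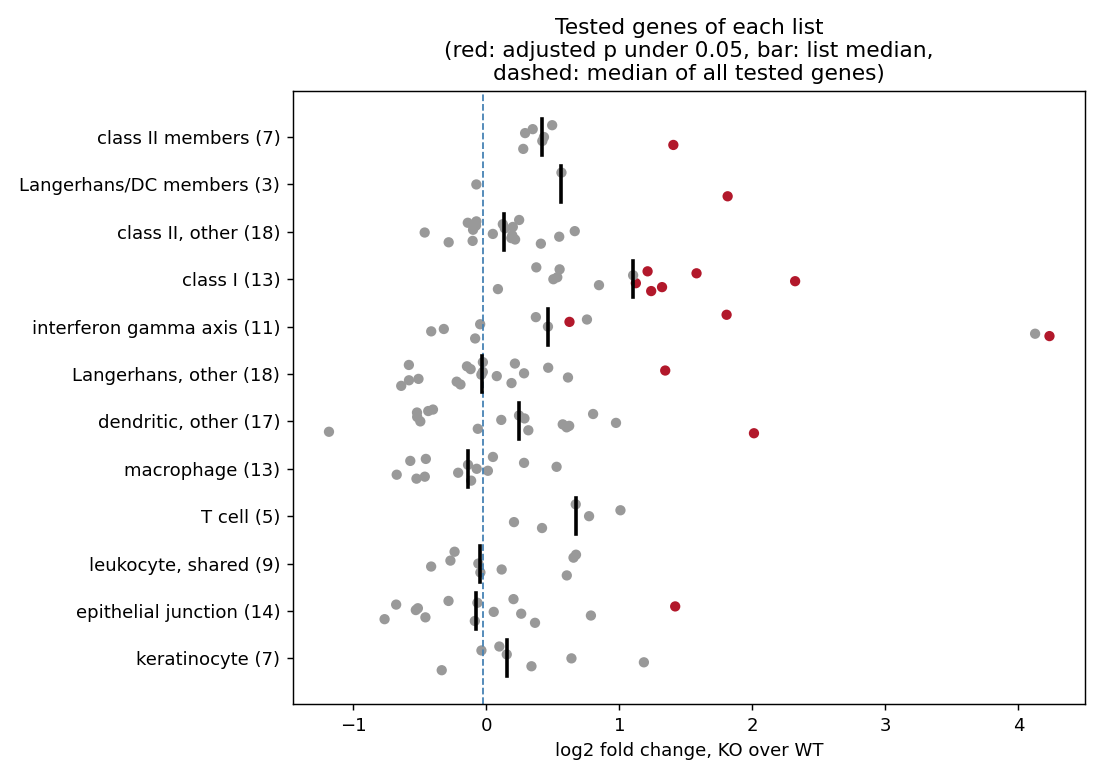
Log2 fold change of every tested gene of each list, 1 point a gene, red where the adjusted p of edgeR's quasi-likelihood test was under 0.05, with the list's median as a bar, the number tested in brackets and the median of all tested genes as a dashed line. Class I stands highest as a list (median 1.10), and the class II members without a red point lie between 0.28 and 0.49.

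Beside Cd207, 18 other Langerhans cell markers and maintenance genes were read, all of them tested. In edgeR's quasi-likelihood test 1 rose and 0 fell, and the median was -0.03. That count is near the 6.47% called among all tested genes and is not read as a result about the list. The one that rose was Ly75, the endocytic receptor DEC-205, with 1.59, 1.78 and 1.84 CPM in WT1, WT2 and WT3 and 4.6, 5.02 and 3.61 CPM in KO1, KO2 and KO3 (log2 fold change 1.34, adjusted p = 0.0113; sharing exon bases with Gm13571, and not called without WT1, WT3 or KO2). Il34, the keratinocyte cytokine on which Langerhans cells depend, was higher in all 3 KO libraries and did not pass (19.6 ± 2.18 and 30.1 ± 3.29 CPM; 0.61, adjusted p = 0.0546). In the other direction Axl (-0.64), Gas6 (-0.58) and Id2 (-0.51) lay below the WT in all 3 KO libraries and did not pass (adjusted p = 0.0585, 0.0759 and 0.0992), and 11 of the 18 had a negative log2 fold change. Without KO3, a fit that called 33% of all tested genes, 3 of the 18 were called higher and 5 lower. With all libraries, edgeR's exact test and DESeq2 each called 2 higher, Ly75 and Il34, and 1 lower. Those tests called 14.9% and 14.2% of all tested genes. The Cd207 to Ly75 log2 ratio was higher in all 3 KO libraries, by 0.50 (exact permutation p = 0.1).

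Dendritic cell genes gave 1 call in edgeR's quasi-likelihood test among 17 tested of 22 (median 0.25), near the 6.47% called among all tested genes. It was Bst2, which marks plasmacytoid dendritic cells but is induced by interferon in many cells (8.80 ± 1.71 and 35.5 ± 15.7 CPM, log2 fold change 2.01, adjusted p = 0.0146). With a library left out, Bst2 kept its call only without KO1 or without KO3. Itgae, the CD103 integrin chain of migratory dendritic cells and resident T cells, had a log2 fold change of 0.80 (adjusted p = 0.0732). The costimulatory and maturation genes Cd86 (0.97), Cd83 (0.57), Cd80 (0.62) and Cd40 (0.60) lay above the WT in all 3 KO libraries and did not pass (adjusted p = 0.0917, 0.0925, 0.142 and 0.155). Ccl17 (-1.18), Mgl2 (-0.52) and Irf4 (-0.52) lay below the WT in all 3 KO libraries and did not pass (adjusted p = 0.105, 0.104 and 0.208), and 9 of the 17 had an unadjusted p under 0.05. Without KO3, 3 were called higher and 4 lower, beside 33% of all tested genes called. With all libraries, edgeR's exact test called 3 higher and 1 lower, beside 14.9% of all tested genes called. DESeq2 called 3 higher and 0 lower, beside 14.2%. The defining markers Xcr1, Clec9a, Batf3, Ccr7 and Siglech were present at 7 to 29 counts a library and were not tested.

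Markers of other class II-bearing and neighbouring cells were read beside the shares called among all tested genes. These were 6.47% in edgeR's quasi-likelihood test, 33% in that test without KO3, 14.9% by edgeR's exact test and 14.2% by DESeq2. Of 13 macrophage genes 0 passed (3 with an unadjusted p under 0.05), with a median of -0.14 and a summed level of 301 to 353 CPM in the WT and 233 to 312 in the KO libraries; C1qc (-0.67, adjusted p = 0.143) and Lyve1 (-0.57, adjusted p = 0.164) had the lowest p, and 3 passed lower without KO3. Of the B cell markers, Cd79a, Cd79b, Ms4a1 and Pax5 had 0 to 15 counts in every library. Ighm, the immunoglobulin mu heavy chain and the only one tested, had 154 to 405 counts (14.7 CPM in WT and 11.5 in KO on average) and did not pass (-0.36). Of 7 T cell genes 5 were tested, and in edgeR's quasi-likelihood test 0 passed (2 with an unadjusted p under 0.05). Their median was 0.67, with Cd4 at 1.01 (adjusted p = 0.0784) and Lck at 0.67 (adjusted p = 0.166). By edgeR's exact test and by DESeq2, 1 T cell gene was called higher, Cd4. The summed level of the 7 T cell genes was 6.75 to 10.7 CPM in the WT and 8.99 to 17.6 in the KO libraries. Of 9 genes shared by leukocytes 0 passed in edgeR's quasi-likelihood test (3 with an unadjusted p under 0.05), beside 1 higher by edgeR's exact test and 3 by DESeq2. Their sum was 190 to 228 CPM in the WT, 164 in KO1, 209 in KO2 and 291 in KO3, the same order of the KO libraries as in class II. Lcp1 (0.65, adjusted p = 0.0907) and Cd52 (0.60, adjusted p = 0.0992) had the lowest p, and without KO3, 1 was called higher and 3 lower. The part of any cell type in the level of class II was not tested.

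Class II and Cd207 were also set against Ptprc (CD45), which is shared by all leukocytes. Ptprc had 12.8 ± 2.24 CPM in the WT and 20.7, 26.0 and 14.5 CPM in KO1, KO2 and KO3 (log2 fold change 0.67, adjusted p = 0.115). The log2 ratio of Cd74 to Ptprc differed by -0.44 (exact permutation p = 0.5) and that of H2-Ab1 by -0.26 (exact permutation p = 0.7), both with overlap. That overlap came from KO3: the Cd74 to Ptprc ratio was 4.36 to 4.96 in the WT, 3.57 in KO1, 3.97 in KO2 and 5.27 in KO3, and the H2-Ab1 to Ptprc ratio was 3.08 to 3.58 in the WT, 2.53 in KO1, 2.78 in KO2 and 4.08 in KO3. Without KO3 the differences were -0.94 and -0.73, with both remaining KO libraries below the WT. These ratios rest on Ptprc alone. Among the KO libraries Ptprc was lowest in KO3, where the summed CPM of the 9 shared leukocyte genes was highest (164 in KO1, 209 in KO2 and 291 in KO3). Of those 9 genes 5 had a negative log2 fold change, unlike Ptprc, and ratios to them were not taken. Cd207 to Ptprc was higher in all 3 KO libraries, by 1.17 (-1.80 ± 0.16 in the WT and -0.62 ± 0.37 in the KO), and H2-Ab1 to Cd207 was lower in all 3, by 1.43 (5.19 ± 0.36 and 3.75 ± 0.55; exact two-sided permutation p = 0.1 for each).

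Genes of the epithelium in which Langerhans cells lie were read against the 6.47% called among all tested genes, or 33% without KO3. Among 14 tested of 15 epithelial junction and simple epithelium genes, which go with Epcam, 1 rose, Krt7 (4.58 ± 0.127 and 12.3 ± 1.20 CPM; 1.42, adjusted p = 0.00191), and 0 fell (median -0.08). Cldn4, a tight junction claudin, had -0.46 (adjusted p = 0.0765), and 2 genes of this list passed lower without KO3. Of 7 keratinocyte genes 0 passed in edgeR's quasi-likelihood test (3 with an unadjusted p under 0.05), and the median was 0.15. Krt1, the suprabasal keratin, had 1.18 (adjusted p = 0.0584) and Itga6, the basal integrin, 0.34 (adjusted p = 0.127). Krt1 passed without KO3 and in 7 of the 11 alternatives. By edgeR's exact test and by DESeq2, 2 of the 7 genes were called higher, beside 14.9% and 14.2% of all tested genes called. The summed level of the keratinocyte genes was 24385 to 28334 CPM in the WT and 36459 to 49063 in the KO libraries. The difference in the sum lay in the suprabasal keratins Krt1 (8003 ± 1304 and 18182 ± 4105 CPM) and Krt10 (8698 ± 966 and 13546 ± 2539 CPM), while the basal keratins Krt5 (4878 ± 442 and 4752 ± 469 CPM) and Krt14 (3674 ± 145 and 4085 ± 528 CPM) overlapped between genotypes. The part of the suprabasal keratins in the levels of Cd207 and Ciita was not tested.

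The genes patterned most like Cd74 and like Cd207 were then listed, by Pearson's r of log2 CPM over the 6 libraries among 12032 genes with a mean of at least 5 CPM. For Cd74 they were Ptpn6 (r = 0.985), Plau (0.973), Irf8 (0.971), Gtf3c5 (0.969) and H2-DMb1 (0.968), and 56 genes had r over 0.9. H2-DMa (rank 7), H2-Ab1 (rank 8), H2-Eb1 (rank 16) and H2-Aa (rank 54) were among those, while Ciita had r = 0.48 and rank 1918. For Cd207 they were Fbxo16 (0.999), Chrm3 (0.998), Slfn2 (0.997), Tes (0.996) and Mcm9 (0.996), each with a log2 fold change from 1.73 to 5.43. In all, 711 genes had r over 0.9 with Cd207, Ciita among them (r = 0.95, rank 300), and r with Cd74 was 0.24. These r describe 6 libraries that fall into 2 genotypes: a gene that separates the genotypes is like Cd207 for that reason alone. Within each genotype Ciita ran in the same order of mice as Cd74. From low to high this was WT2, WT1 and WT3, and KO1, KO2 and KO3. The match was picked after the values were seen, and the share of tested genes with that order was not counted. The KO libraries of Ciita were all above the WT (1.13, 1.44 and 1.60 in KO1, KO2 and KO3, as log2 over the WT mean). Cd74 had -0.44 in KO1, 0.29 in KO2 and 0.75 in KO3.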

How the data were processed

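RNA from the top lip of 3 KO and 3 WT mice (1 mRNA library per mouse) was sequenced as paired-end reads on an Illumina instrument. The authors aligned the reads to GRCm38 with TopHat2 2.0.8 and Bowtie2 2.1.0 and counted them per gene with HTSeq, whose version is not given in the sources used here. The deposited values are raw counts, with no normalization, for 26814 genes, and they passed a check as whole numbers. Every column was mapped to a library (0 unused), and 0 rows lacked a gene. Whether counting used strand is not given in the sources used here, and HTSeq leaves out reads that it cannot assign to 1 gene.

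A gene was tested where 3 or more libraries reached 1 CPM (15009 genes), in R 4.3.3 with edgeR 4.0.16: TMM scaling, glmQLFit with legacy=FALSE, glmQLFTest on genotype, and Benjamini-Hochberg adjustment over all tested genes at a threshold of 0.05. All p-values of single genes named without a tool come from that edgeR quasi-likelihood fit. Values are CPM on TMM-scaled libraries as mean ± SD (n = 3). Levels per kilobase use the union of exons in a GENCODE annotation of GRCm38, which also gave the coordinates. Log2 ratios of 2 genes (14 in all) used CPM with a prior count of 0.5 and an exact two-sided permutation test over the 6 libraries. Alternatives used edgeR's exact test, DESeq2 1.42.0, limma-voom (limma 3.58.1), other scalings and filters, a replicate block and each library left out in turn. The procedure was tested on simulated data. Figures were drawn with Python 3.11.15 and matplotlib 3.10.9.

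The 10 members, the 11 other lists and the tests were chosen with earlier results of these data known. Named are all 10 members, of each other list the called genes (at most 6 by lowest p, or the 2 of lowest p where fewer than 2 passed), and the 5 genes most like Cd74 and most like Cd207. The genes of the docking proteins, the untested dendritic and B cell markers, H2-Oa, H2-Eb2, Dexi, Irf1, Ifng, Ifngr1, Ifngr2, Ptprc, Tapbp, Calr, Axl, Gas6, Id2, Cd86, Cd83, Cd80, Cd40, Ccl17, Mgl2, Irf4, Cdh1, Krt5, Krt10 and Krt14 were named beyond that rule after their values were seen. Because 6 listed symbols had no row under that spelling, they are not analysed here. The values of 2 further genes of the lists are not reported here.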

Additional observations from a re-analysis of the deposited data

How the results depend on the processing

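The 2 members called higher and the 0 called lower were the same in number under all 11 alternatives, in all 6 fits that left out a library and with the trend on gene span or exon length removed. Ciita and Cd207 were the members called each time, with log2 fold changes of 1.35 to 1.46 and 1.76 to 1.87 over the 11 alternatives and highest adjusted p-values with a library left out of 0.0281 for Ciita and 0.0104 for Cd207. The other 8 members passed in none of these fits. Of the 10 members, only Cd74 (-0.03 without KO3) and Epcam (0.004 without KO2, and 0.06 with the trend on exon length removed, an alternative chosen after seeing the data) changed sign. Of the 14 ratios 3, all with overlap between genotypes, changed sign with a library left out: H2-Ab1 to Ptprc was 0.04 without KO1, H2-DMb1 to H2-DMa -0.06 without KO3, and H2-Ab1 to H2-Aa -0.04 without WT1 and -0.07 without KO2.

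The calls outside the members depended on the tool and on single mice. Over the 11 other lists 12 genes were called, beside 25 by edgeR's exact test, 28 by DESeq2 and, with each library left out, between 4 (without WT1, WT3 or KO2) and 43 (without KO3). Of all tested genes 6.47% were called, beside 14.9% by the exact test, 14.2% by DESeq2, 4.17% with no filter and between 1.53% (without KO2) and 33% (without KO3) with each library left out. The cause was not tested.

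The replicate numbers of WT and KO are shared by the labels only. Deviations from the group means correlated at -0.19, 0.28 and 0.30 between libraries of the same number, and WT1, WT2 and KO1 did not correlate best with the library of their own number, so the numbers were not taken as pairs. With a replicate block, Ciita had a log2 fold change of 1.40 (adjusted p = 0.00628) and Cd207 of 1.82 (adjusted p = 0.00369), 2 members were called higher and 0 lower, and Tap1 (adjusted p = 0.0528) and the log2 fold change of Jak1 (0.63, adjusted p = 0.0618) lost their calls. With 3 mice per genotype, differences of the size seen in the class II chains were within the intervals of the fit and cannot be read as absent.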
